A study of Sus scrofa with 2 samples.

Results

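Transcripts of 5 nuclear receptor genes were followed across the cell classes of the pig pancreas: the estrogen receptors ESR1 and ESR2 and the retinoid X receptors RXRA, RXRB and RXRG. The 5 genes were taken by symbol, and each symbol matched 1 of the 31908 genes in the count matrices. Single-nucleus RNA sequencing was done on 1 pancreas piece from a wild-type (WT) bama pig and 1 from a transgenic bama pig (PIGinH11) that carries knocked-in GIPRdn, hIAPP and PNPLA3I148M under promoters of beta cells or liver. Both pigs were males of 18 months that had a control diet until month 6 and then a high-fat, high-sucrose diet (HFHSD) for 12 months, so neither library is free of the diet. With 1 library per genotype no test was possible, and the genotype, the animal, the tissue piece and the library cannot be told apart.

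Estrogen receptors bind estradiol, pair with themselves or with each other on DNA, and switch target genes on or off. ESR1 encodes estrogen receptor alpha, the main receptor of uterus and breast, and ESR2 encodes estrogen receptor beta. Retinoid X receptors bind 9-cis retinoic acid and serve as the common partner of many other nuclear receptors, among them the retinoic acid, thyroid hormone, vitamin D, bile acid and peroxisome proliferator-activated receptors. In the pancreas, retinoids are stored by quiescent stellate cells, the fibroblast-like cells of the gland.

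After filtering, 11854 WT and 13126 PIGinH11 nuclei remained, of 13619 and 14964 barcodes, and 60 barcodes occurred in both libraries. The WT library had a median of 3019 unique molecular identifiers (UMIs, counted transcript molecules) per nucleus against 1167.5 in PIGinH11. Depth here means this number of UMIs, since the paper lists similar mean reads per cell for both libraries. Clusters were named from marker genes into 12 classes, each called "like" the cell type. They ran from 8446 WT and 9133 PIGinH11 acinar-like nuclei to 8 and 38 gamma-like nuclei, and all 11 stellate and all 7 measured acinar markers were at least 2-fold higher in their class than in the other named nuclei of each library. Clusters led by digestive enzymes or holding many acinar transcripts were left unnamed, among them 81 nuclei of the Schwann cluster that all came from the PIGinH11 library. A level is given as CPM, the UMIs of a gene per 1000000 UMIs of the class, with a 95% interval that covers counting error only (exact Poisson for levels, exact conditional binomial for ratios, Clopper-Pearson for shares of nuclei).

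**Figure D1:**
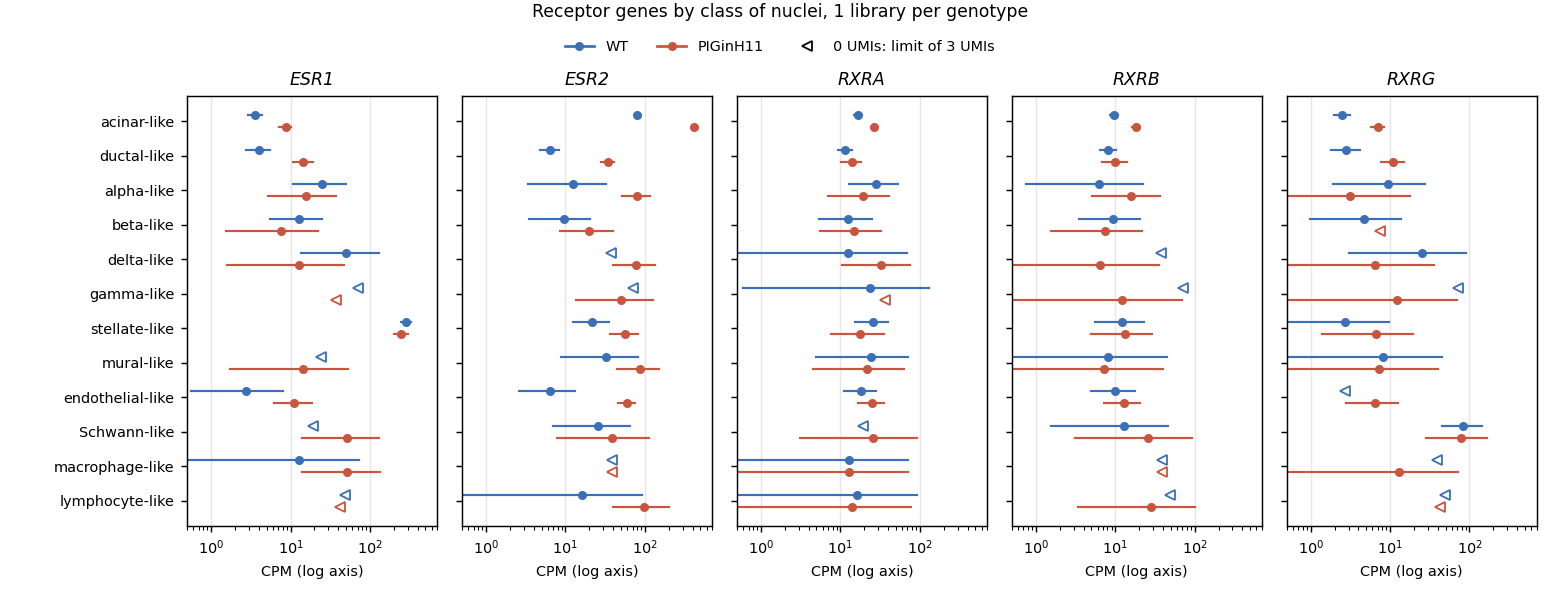
Level of each receptor gene in CPM (log axis) in the 12 named classes, with 1 point per library and lines for the 95% Poisson interval, which run off the left edge where they reach below 0.5 CPM. Open triangles mark classes with 0 UMIs and stand at the level that 3 UMIs would give. ESR2 is highest in acinar-like nuclei and ESR1 in stellate-like nuclei of both libraries, while RXRA and RXRB lie within a narrow range.

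ESR2 transcripts came mainly from acinar-like nuclei, the enzyme-secreting cells of the gland. There ESR2 gave 2427 UMIs in WT, a level of 80.3 CPM (77.1 to 83.6), and 6564 UMIs in PIGinH11, a level of 420.8 CPM (410.6 to 431.1). These nuclei held 96.2% of the ESR2 UMIs of all named classes in WT and 95.9% in PIGinH11. They made up 71.3% and 69.6% of all retained nuclei, and for RXRA they held 75.5% and 79.4% of the UMIs. ESR2 was at least 2-fold higher in acinar-like nuclei than in each of the other 11 classes of both libraries, a rule that 0.974% of 21049 genes met. The nearest class was mural-like nuclei in WT, 2.50-fold (0.974 to 9.17) lower from 4 UMIs, so that its interval reaches equal levels. The same holds in WT for gamma-like nuclei, with 0 ESR2 UMIs, and for lymphocyte-like nuclei, with 1. The ductal-like nuclei lay 12.5-fold (9.59 to 16.7) below the acinar-like nuclei in WT and 12.4-fold (10.3 to 15.0) below in PIGinH11. Because ESR2 has by far its highest level in one class, the order of the other classes rests on few molecules, and most of their intervals overlap.

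The level of ESR2 in PIGinH11 acinar-like nuclei was 5.24-fold that in WT (5.00 to 5.49, log2 2.39). Relative to all genes the difference was smaller, since the median gene of these nuclei was itself 0.29 higher on the log2 scale. Only 271 of 19162 genes with at least 20 UMIs had a higher ratio, or 1.41%. The shift was largest for genes with few counts. It was 0.66 for genes under 10 CPM on the mean of both libraries, 0.11 for genes between 10 and 100 CPM, and -0.04 for genes of at least 100 CPM. By this mean ESR2 falls in the last band, in which 2.57% of 2062 genes were at least 2-fold higher in PIGinH11. It does so only through its PIGinH11 level, since its WT level of 80.3 CPM lies between 10 and 100 CPM. In the band of 10 to 100 CPM the share was 6.57% of 6713 genes. Just 5 genes of the last band lay above ESR2, named here after their values were seen: COL11A2, NELL1, TNFAIP8, MEGF11 and PALM2AKAP2, the last at 5.38-fold. These 5 genes also reached the band through PIGinH11, with at most 38.3 CPM in WT. The 7 acinar markers did not share the difference, with log2 ratios between -0.63 for CDH4 and 0.46 for RBPJL and a median of 0.00. These markers do not stand for all acinar genes. PNLIPRP1 had 6955.5 CPM in WT and 19184.6 CPM in PIGinH11 acinar-like nuclei, and DNASE1 had 2392.5 and 5245.1 CPM. Both are named below for their likeness to ESR2, which was measured over the same libraries.

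More acinar-like nuclei carried ESR2 in PIGinH11 although they held fewer UMIs per nucleus at the median. At least 1 ESR2 UMI was found in 1499 of 8446 WT nuclei, or 17.7% (16.9 to 18.6), and in 3148 of 9133 PIGinH11 nuclei, or 34.5% (33.5 to 35.5). Averaged over all draws of 500 UMIs from every nucleus, with 0 nuclei too shallow, the shares were 4.01% (3.601 to 4.45) and 17.2% (16.5 to 18.0). Among macrophage-like nuclei, where ESR2 gave 0 UMIs in 22 WT and 22 PIGinH11 nuclei, the median depth was 3491 and 3654.5 UMIs. A count of 3 UMIs, taken as the limit for a count of 0, would give 38.7 CPM there in each library. Nuclei with 2 or more ESR2 UMIs made up 6.00% of the WT and 15.8% of the PIGinH11 acinar-like nuclei, and the highest nucleus held 14 and 23 UMIs.

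The difference was found in each acinar-like cluster. In the 6 acinar-like clusters, each with at least 100 nuclei of each library, ESR2 ranged from 55.6 to 104.0 CPM in WT and from 287.2 to 585.2 CPM in PIGinH11, so the libraries did not overlap. The log2 ratio lay between 2.16 and 2.58, and its interval was above 0 in 6 of 6. The clusters come from the same 2 libraries, so they are not replicates of the difference. The share of all genes that were higher in each of the 6 clusters was not recorded. The highest level in both libraries was in cluster 2 (104.0 and 585.2 CPM), which was led by DPEP1 and BVES, and the lowest was in cluster 7 (55.6 and 287.2 CPM), whose leading genes included CEL, a lipase, and GP2, a zymogen granule protein. Cluster 13, whose leading genes TOP2A and CENPF belong to dividing cells, had 79.5 CPM in WT (49.8 to 120.4) and 393.6 CPM in PIGinH11 (312.6 to 489.2). Split by depth, ESR2 was at 106.4 CPM in WT nuclei under 1300 UMIs and 79.0 CPM in deeper ones, against 505.2 and 389.7 CPM in PIGinH11. Shallow nuclei thus had the higher level in both libraries, and the libraries were apart in either range of depth. Nuclei left unnamed at the first clustering, nearly all in a cluster led by digestive enzymes, are not among the 6 clusters. They had 10 ESR2 UMIs (7.75 CPM, 3.72 to 14.3) in 347 WT nuclei and 30 (227.4 CPM, 153.4 to 324.6) in 151 PIGinH11 nuclei. These nuclei were not alike in the libraries, with median depths of 3063 and 675 UMIs. The median of the 7 acinar markers was 5.40% of the acinar-like level in WT and 59.6% in PIGinH11, and ESR2 stood at 9.65% and 54.0%.

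**Figure D2:**
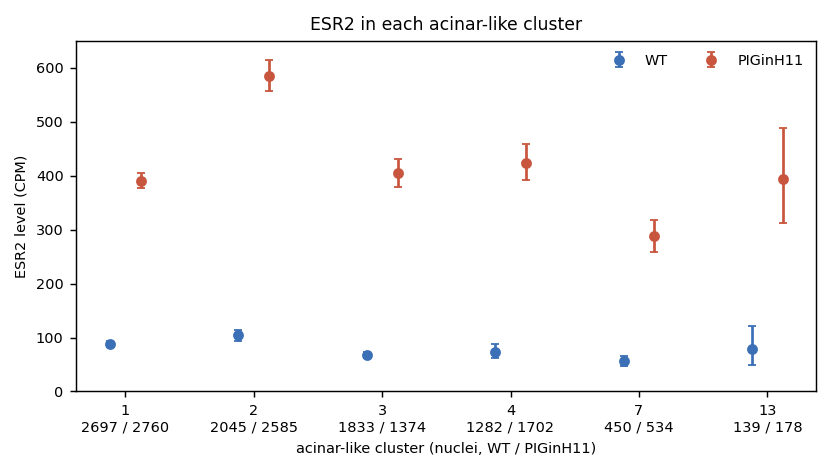
ESR2 level in CPM (linear axis from 0) in the 6 acinar-like clusters, with 95% Poisson intervals. The numbers of WT and PIGinH11 nuclei stand under each cluster. Each PIGinH11 point, from 287.2 CPM upward, is above each WT point, of which the highest is 104.0 CPM.

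ESR2 levels were higher in PIGinH11 in ductal-like, endothelial-like and pooled alpha-, beta-, delta- and gamma-like nuclei as well. The median acinar marker, relative to acinar-like nuclei of its library, was also higher in these groups. Ductal-like nuclei had 55 ESR2 UMIs (6.41 CPM) in WT and 113 (34.0 CPM) in PIGinH11, a ratio of 5.31-fold (3.81 to 7.47). Endothelial-like nuclei had 7 (6.39 CPM) and 74 (59.2 CPM), a ratio of 9.26-fold (4.28 to 23.8). Alpha-, beta-, delta- and gamma-like nuclei together, called islet-like, had 10 (9.31 CPM) and 49 (51.6 CPM), a ratio of 5.54-fold (2.77 to 12.3). Alternative clusterings named fewer PIGinH11 alpha-like nuclei than the 156 counted here, and islet-like values were not recomputed under them.

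To set these values beside acinar RNA, each level was expressed as a percent of its own level in acinar-like nuclei of the same library. In endothelial-like nuclei ESR2 stood at 7.95% (3.20 to 16.4) in WT and 14.1% (11.04 to 17.7) in PIGinH11, and the 7 acinar markers had a median of 7.14% and 14.4%. In ductal-like nuclei of PIGinH11 it stood at 8.09% (6.67 to 9.73), with markers between 5.38% and 9.47%. The WT ductal-like nuclei were the exception, at 7.98% (6.01 to 10.4) with markers between 2.68% and 4.77%. In the other classes the intervals of ESR2 were wide, many of them from 4 or fewer UMIs, and so were some marker ranges, up to a highest marker at 102.0% in PIGinH11 alpha-like nuclei. The ESR2 value lay above the marker median in 8 of 11 WT classes, those with any ESR2 UMI, and in 6 of 11 PIGinH11 classes. In WT stellate-like nuclei it stood at 27.0% (15.4 to 43.9) with a marker median of 13.6%, and in WT islet-like nuclei at 11.6% (5.56 to 21.3) with a median of 5.52%. The marker median was lower in PIGinH11 than in WT in mural-like (20.2% and 23.5%), Schwann-like (14.6% and 22.7%) and macrophage-like nuclei (1.84% and 4.29%). In the other classes it was higher. ESR2 had 86.9 CPM in PIGinH11 and 32.2 CPM in WT mural-like nuclei, from 12 and 4 UMIs. In Schwann-like nuclei it had 38.5 and 25.8 CPM, from 3 and 4 UMIs. The part of acinar RNA in the ESR2 values of these classes was not tested.

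**Figure D3:**
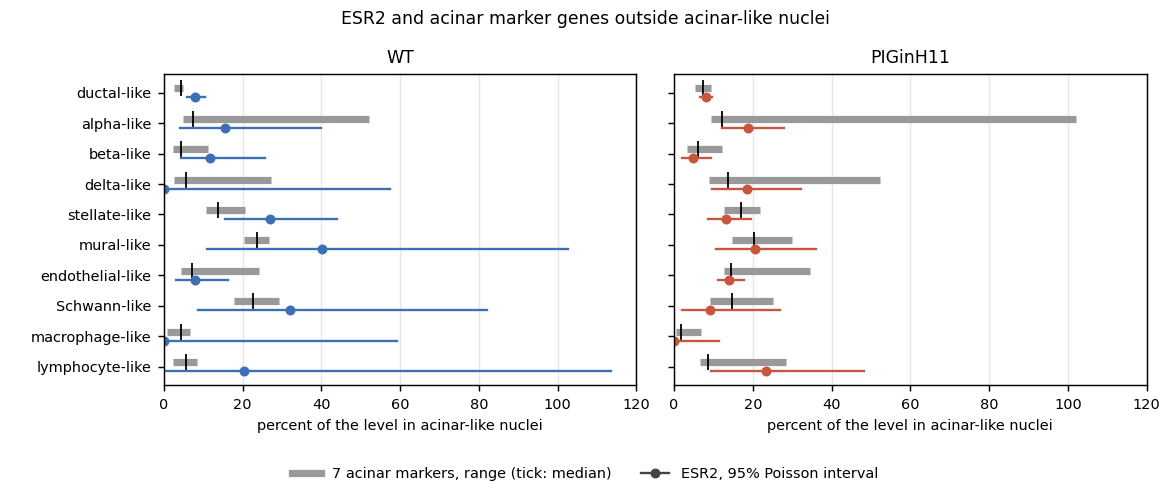
ESR2 (points, lines for the 95% Poisson interval) and 7 acinar marker genes (grey bars from lowest to highest, tick at the median) in 10 other classes, each as a percent of the level in acinar-like nuclei of the same library. Gamma-like nuclei are left out, with 8 nuclei in WT. The ESR2 line lies clear of the grey bar only in WT ductal-like nuclei, and many other lines are long because they rest on few UMIs.

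ESR1 had its highest level in stellate-like nuclei. Stellate-like nuclei held 211 ESR1 UMIs in WT, a level of 286.2 CPM (248.8 to 327.5), and 111 in PIGinH11, a level of 246.8 CPM (203.1 to 297.3). Acinar-like nuclei held 108 UMIs (3.57 CPM) and 135 UMIs (8.65 CPM). The stellate-like level was therefore 80.1-fold that of acinar-like nuclei in WT (63.2 to 102.0) and 28.5-fold in PIGinH11 (21.99 to 36.9), or 6.32 and 4.83 on the log2 scale. With nuclei under 1300 UMIs clustered on their own these log2 ratios were 2.69 and 2.88, and with nuclei thinned to 500 UMIs they were 4.98 and 3.56. A stellate-like level at least 2-fold above the acinar-like level, in both libraries, was met by 14.5% of 19403 genes, and by 1 of the 5 receptors. Against every other named class the same criterion was met by 0.751% of genes, ESR1 among them.

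For the ESR1 level of stellate-like nuclei the PIGinH11 over WT ratio was 0.863 (0.679 to 1.09), an interval that includes equal levels. Its log2 value of -0.21 turned to 0.24 with nuclei thinned to 500 UMIs and to 0.95 with nuclei under 1300 UMIs clustered on their own. Nuclei with an ESR1 UMI were nonetheless fewer in PIGinH11: 77 of 195 WT nuclei, or 39.5% (32.6 to 46.7), and 46 of 238 PIGinH11 nuclei, or 19.3% (14.5 to 24.9), at median depths of 3323 and 1255 UMIs. Averaged over all draws of 500 UMIs the shares were 10.4% (6.51 to 15.6) and 8.56% (5.33 to 12.9), and these intervals, which are approximate, overlap. In acinar-like nuclei, at median depths of 2846 and 1197 UMIs, the shares were 1.26% and 1.43% in the full data and 0.279% and 0.730% over such draws. The UMIs were concentrated in a part of the class, since 45 WT and 24 PIGinH11 stellate-like nuclei held 2 or more, and up to 14 in each library.

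Shallow stellate-like nuclei had lower ESR1 levels than deep ones, with intervals that overlap in each library. Those of at least 1300 UMIs had 292.9 CPM (254.5 to 335.4) in 171 WT nuclei and 274.4 CPM (222.3 to 335.1) in 115 PIGinH11 nuclei. Shallower ones had 84.2 CPM (10.2 to 304.2) in 24 WT nuclei, from 2 UMIs, and 150.2 CPM (84.1 to 247.7) in 123 PIGinH11 nuclei, from 15 UMIs. The summed level of the 11 stellate markers also was lower in the shallow nuclei, at 7201 CPM against 12565 CPM in WT and 7961 against 12570 CPM in PIGinH11. In PIGinH11 the acinar markers of the shallow nuclei stood at a median of 26.1% of their acinar level, against 14.5% in the deeper ones. The part of these differences in the ESR1 level was not tested.

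**Figure D4:**
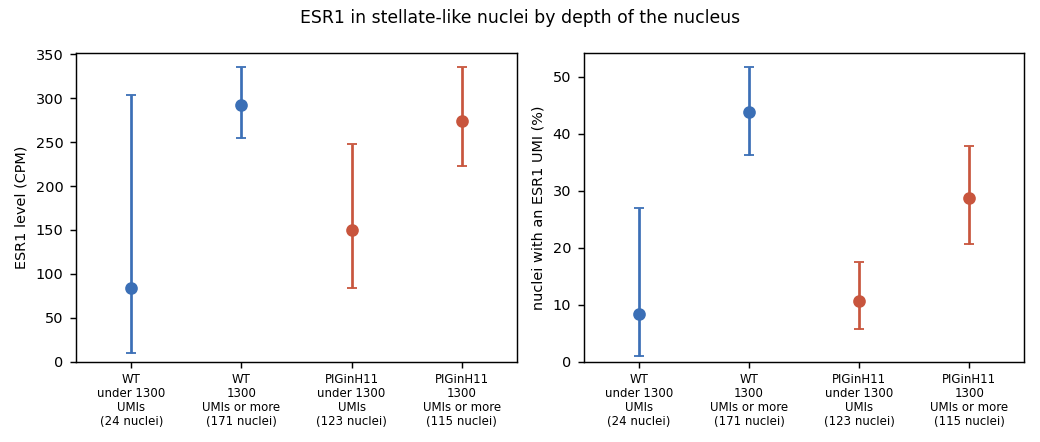
ESR1 in stellate-like nuclei below and above 1300 UMIs per nucleus, for each library: level in CPM with 95% Poisson intervals (left) and percent of nuclei with at least 1 ESR1 UMI with 95% Clopper-Pearson intervals (right). Nuclei of 1300 UMIs or more have 292.9 CPM in WT and 274.4 CPM in PIGinH11 and overlapping intervals.

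In the other classes ESR1 was low, and it was not evenly spread. Ductal-like nuclei had 34 UMIs (3.96 CPM) in WT and 48 (14.5 CPM) in PIGinH11. Islet-like nuclei had 20 UMIs in WT, a level of 18.6 CPM (11.4 to 28.8), and 10 in PIGinH11, a level of 10.5 CPM (5.05 to 19.4). In WT this was 5.21-fold (3.06 to 8.45) the acinar-like level, whereas in PIGinH11 the ratio was 1.22 (0.570 to 2.31). Levels at least 2-fold above acinar-like nuclei in both libraries were met by 16.4% of 19602 genes in islet-like nuclei, and by 0 of the 5 receptors. Among single islet classes the largest WT count was 8 UMIs, in alpha-like and in beta-like nuclei, and 0 UMIs were seen in gamma-like nuclei of either library. Schwann-like nuclei gave 0 and 4 ESR1 UMIs and macrophage-like nuclei 1 and 4, counts too small to place these classes.

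Within the acinar-like nuclei, ESR1 was highest in cluster 2, with 43 UMIs (10.6 CPM, 7.69 to 14.3) in WT and 77 UMIs (28.6 CPM, 22.6 to 35.8) in PIGinH11. The other 5 clusters ranged from 2.15 to 4.11 CPM in WT and from 2.35 to 11.7 CPM in PIGinH11. Stellate markers were also highest in this cluster, with a summed level of 115.6 CPM in WT and 232.4 CPM in PIGinH11. As a percent of the level in stellate-like nuclei, however, ESR1 stood at 3.71% (2.69 to 5.00) in WT and 11.6% (9.15 to 14.5) in PIGinH11, and the 11 stellate markers ranged from 0.210% to 2.12% and from 0.639% to 3.32%. In cluster 1 the ESR1 value was 0.753% (0.5001 to 1.09) in WT and 1.06% (0.645 to 1.63) in PIGinH11, within the range of the markers in both. ESR1 also lay above the markers in PIGinH11 cluster 4, at 4.76% (2.77 to 7.62) with the highest marker at 2.25%. For all PIGinH11 acinar-like nuclei it stood at 3.51% (2.94 to 4.15) with the highest marker at 1.77%, and for PIGinH11 ductal-like nuclei at 5.86% (4.32 to 7.77) with the highest at 2.62%. Cluster 2 nuclei were shallow, with median depths of 1702 and 901 UMIs against 4429 and 2273.5 UMIs in cluster 1. Cluster 4, which was shallower still at 1160.5 and 746 UMIs, had 7 ESR1 UMIs (4.11 CPM, 1.65 to 8.46) and 17 (11.7 CPM, 6.84 to 18.8). RXRG likewise had its most UMIs in cluster 2, with 27 (6.67 CPM, 4.40 to 9.70) in WT and 63 (23.4 CPM, 18.0 to 30.0) in PIGinH11, against 17 (1.31 CPM) and 16 (2.09 CPM) in cluster 1.

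RXRA, RXRB and RXRG were compared with the same measures. RXRA and RXRB encode the widely expressed retinoid X receptors alpha and beta, and both were found in most classes at similar levels. RXRA gave 499 UMIs (16.5 CPM) in WT and 420 UMIs (26.9 CPM) in PIGinH11 acinar-like nuclei, and 99 UMIs (11.5 CPM) and 46 UMIs (13.9 CPM) in ductal-like nuclei. Acinar-like nuclei were 1.43-fold (1.15 to 1.79) above ductal-like nuclei in WT and 1.94-fold (1.43 to 2.70) above in PIGinH11. Stellate-like nuclei had 19 UMIs (25.8 CPM) and 8 UMIs (17.8 CPM), endothelial-like nuclei had 20 (18.2 CPM) and 31 (24.8 CPM), and islet-like nuclei had 19 (17.7 CPM) and 17 (17.9 CPM). The intervals of these last groups overlap that of acinar-like nuclei in the same library, so no order among them was detectable at this depth.

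RXRB gave 292 UMIs (9.66 CPM) in WT and 284 UMIs (18.2 CPM) in PIGinH11 acinar-like nuclei. In ductal-like nuclei it gave 70 UMIs (8.16 CPM) and 33 UMIs (9.94 CPM), which is 1.18-fold (0.910 to 1.56) below acinar-like nuclei in WT and 1.83-fold (1.27 to 2.71) below in PIGinH11. Endothelial-like nuclei had 11 UMIs (10.0 CPM) and 16 UMIs (12.8 CPM), and stellate-like nuclei had 9 (12.2 CPM) and 6 (13.3 CPM). Neither RXRA nor RXRB was at least 2-fold above every other class in any class. With an RXRA UMI in 5.53% and an RXRB UMI in 3.24% of WT acinar-like nuclei, single nuclei could not be graded for either gene.

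RXRG, which encodes retinoid X receptor gamma, was sparse, with 124 UMIs in WT and 168 in PIGinH11 over all named classes. Its highest level was in Schwann-like nuclei, the glia of pancreatic nerves. There it gave 13 UMIs in 11 of 47 WT nuclei, a level of 83.7 CPM (44.6 to 143.1), and 6 UMIs in 4 of 36 PIGinH11 nuclei, a level of 77.1 CPM (28.3 to 167.8). Acinar-like nuclei had 76 UMIs (2.51 CPM) and 110 UMIs (7.05 CPM), so the Schwann-like level was 33.3-fold higher in WT (17.0 to 60.4) and 10.9-fold higher in PIGinH11 (3.93 to 24.6). Schwann-like levels at least 2-fold above acinar-like levels in both libraries were met by 8.76% of 19204 genes and by 1 of the 5 receptors, and levels at least 2-fold above every other class by 0.675% of 21049 genes, RXRG among them. Its interval overlaps that of the next class in both libraries, delta-like nuclei in WT (25.03 CPM, 3.03 to 90.4, from 2 UMIs) and macrophage-like nuclei in PIGinH11 (12.9 CPM, 0.327 to 72.0, from 1 UMI). Islet-like nuclei had 8 RXRG UMIs (7.45 CPM) in WT and 3 (3.16 CPM) in PIGinH11. In WT this was 2.96-fold (1.23 to 6.14) the acinar-like level, whereas in PIGinH11 the ratio was 0.448 (0.0910 to 1.34). Schwann-like nuclei were identified from 5 measured markers, all at least 2-fold higher in both libraries. The 81 PIGinH11 nuclei split from their cluster gave 0 RXRG UMIs, and this split was set after values of the receptors had been seen. With the cluster not split, the PIGinH11 log2 ratio of RXRG over acinar-like nuclei was 2.54, against 3.45 here. The PIGinH11 level and the 2-fold rule above thus rest on the split.

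Between the libraries, 3 of the 5 receptors were at least 2-fold higher in PIGinH11 acinar-like nuclei and 0 were at least 2-fold lower, whereas over all genes 21.8% were at least 2-fold higher and 2.92% at least 2-fold lower. With median-of-ratios scaling these shares were 15.5% and 4.73%, and the same 3 receptors stayed past 2-fold. ESR1 was 2.42-fold (1.87 to 3.15) and RXRG 2.80-fold (2.07 to 3.81) higher. Both had a mean under 10 CPM, and among 10387 genes in that band 35.4% were at least 2-fold higher, so a ratio past 2-fold was common there. In that band 24.0% of genes had a ratio above that of ESR1 and 16.1% a ratio above that of RXRG. RXRA was 1.63-fold (1.43 to 1.86) and RXRB 1.88-fold (1.59 to 2.23) higher; in their band of 10 to 100 CPM 6.57% of 6713 genes were at least 2-fold higher, 13.6% had a ratio above that of RXRA and 8.21% a ratio above that of RXRB. ESR2 had the smallest share of genes above it in its band, at 0.242%. That band was reached only through its high PIGinH11 level, so the share cannot be read as a background for the ratio. RXRB, at 9.66 CPM in WT, likewise entered its band only through PIGinH11. Among all 19162 genes the share above ESR2 was 1.41%. Limited to nuclei of under 1300 UMIs, the log2 ratio of ESR1 was 0.76, under 2-fold.

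Ductal-like nuclei gave the same order of the 5 ratios, with overlapping intervals among the first 3 and between the last 2. ESR1 was 3.65-fold (2.30 to 5.84), RXRG 3.88-fold (2.25 to 6.79) and ESR2 5.31-fold higher in PIGinH11, so 3 of 5 were past 2-fold, against 17.4% of 14938 genes. For genes under 10 CPM, which include ESR1 and RXRG, the share was 33% of 5810 genes. Limited to nuclei of under 1300 UMIs, the log2 ratio of RXRG in ductal-like nuclei was 0.70, under 2-fold. For RXRA (1.201-fold, 0.828 to 1.72) and RXRB (1.22-fold, 0.780 to 1.87) the ductal-like intervals include equal levels. In stellate-like nuclei 3 receptors had at least 20 UMIs, and 1 of them, ESR2, was past 2-fold, at 2.56-fold (1.32 to 5.14) from 16 and 25 UMIs, while 13% of 7848 genes were past 2-fold in either direction (7.28% higher and 5.72% lower, or 5.26% and 7.63% with median-of-ratios scaling).

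**Figure D5:**
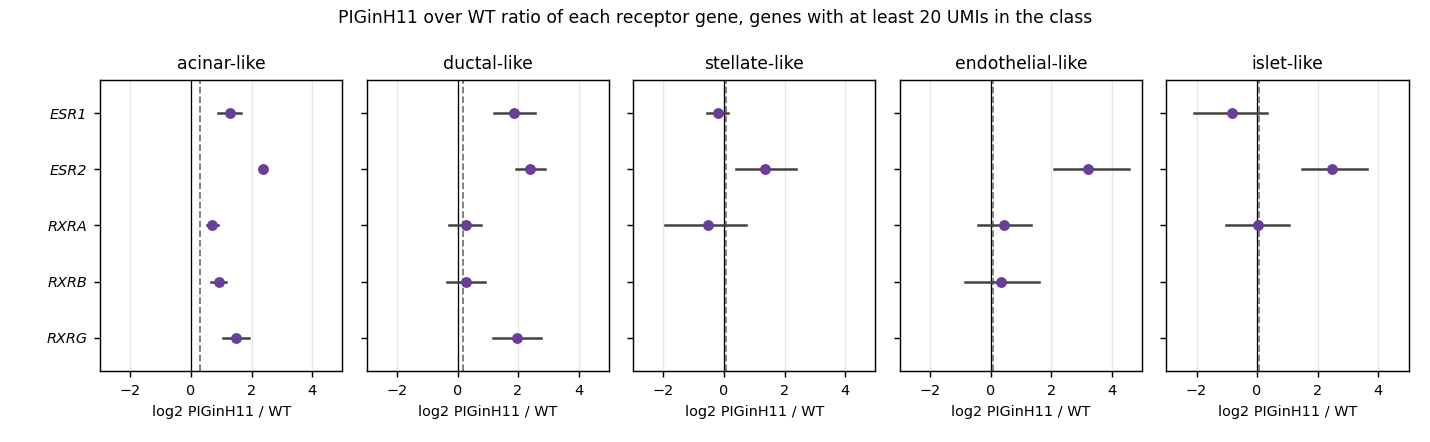
Log2 ratio of PIGinH11 over WT for each receptor gene in 5 groups of nuclei, with exact conditional binomial 95% intervals. A gene is drawn where it had at least 20 UMIs in both libraries together, the solid line marks 0, and the dashed line marks the median of all such genes. ESR2 lies right of the dashed line in each of the 5 groups and ESR1 does so in acinar-like and ductal-like nuclei.

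The positions of the genes on the Sscrofa11.1 assembly in RefSeq bear on how reads can be assigned, since transcripts were counted per gene. ESR2 lies on chromosome 1 from 193823666 to 193907330, and SYNE2, which encodes a large nuclear envelope protein, begins 2232 bases after it. SYNE2 was at 338.7 CPM in WT and 442.1 CPM in PIGinH11 acinar-like nuclei, a ratio of 1.31-fold (log2 0.38), beside the 5.24-fold of ESR2. Whether transcripts of SYNE2 contribute to the ESR2 count was not tested. ESR1 lies on chromosome 1 from 14217032 to 14604906. Its nearest measured neighbour to the right, CCDC170, had 99 and 140 acinar-like UMIs and was 2.74-fold higher in PIGinH11, beside the 2.42-fold of ESR1.

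RXRA lies on chromosome 1 from 273698842 to 273797622, more than 100 kb from its nearest measured neighbours. RXRB lies on chromosome 7 from 25236005 to 25242842, between COL11A2, which ends 1124 bases before it, and SLC39A7, which begins 19 bases after it. COL11A2, a collagen gene, gave 11 UMIs in WT and 5607 in PIGinH11 acinar-like nuclei (0.364 and 359.4 CPM). SLC39A7, a zinc transporter gene, was 1.22-fold higher in PIGinH11. Whether transcripts of COL11A2 contribute to the RXRB count was not tested. RXRG lies on chromosome 4 from 85158313 to 85357116 and has LRRC52 within its span, with 10 and 15 acinar-like UMIs, so the assignment of reads there is uncertain.

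The genes whose levels over the 24 pairs of class and library most resembled those of each receptor were sought among 8939 genes (8940 for RXRB), by Pearson's r of log2(CPM + 5). The pairs share 2 libraries and their depths, so r is a description. ESR2 was nearest to PNLIPRP1 (r = 0.903), a pancreatic lipase relative, DNASE1 (r = 0.889), a secreted nuclease, and RBPJL (r = 0.881), an acinar transcription factor. ESR1 was nearest to ISM1 (r = 0.813), VIT (r = 0.806) and RSPO3 (r = 0.769), a secreted enhancer of Wnt signalling that had 663.2 and 467.0 CPM in stellate-like nuclei. RXRG was nearest to IL1RAPL1 (r = 0.844), ZNF536 (r = 0.835) and MAL (r = 0.816), a myelin protein. RXRB was nearest to DHX8 (r = 0.871), FAM210B (r = 0.848) and PLA2G4B (r = 0.833), and RXRA to DNAJC8 (r = 0.704), ATXN2L (r = 0.683) and CCDC47 (r = 0.651). In 8 of the 12 classes RXRA had under 20 UMIs in both libraries together, as had RXRB in 9, RXRG in 10, ESR1 in 9 and ESR2 in 7, so these likenesses rest on small counts for all 5.

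The wider pathway was read from 51 genes in 5 lists, of which 46 are in the matrices. Over the 40 with at least 20 UMIs in acinar-like nuclei, 7 were at least 2-fold higher in PIGinH11 and 0 at least 2-fold lower, or 17.5% against 21.8% of all genes, and all 7 had a mean under 10 CPM. The 15 partners of the retinoid X receptors that were measured had a median log2 ratio of 0.63, against 0.29 for all genes, and 4 of them were past 2-fold. Most of the 15 had a mean under 10 CPM, the band in which the median of all genes was 0.66. Of these, VDR, the vitamin D receptor (0.761 and 2.18 CPM), PPARG, the adipogenic receptor (2.18 and 6.28 CPM), and NR1H4, the bile acid receptor (1.19 and 3.21 CPM), had at least 20 UMIs in each library. NR4A1, an immediate early receptor, lay just under the limit (1.65 and 3.27 CPM, log2 0.98). The 2 partners with the most UMIs differed less. THRB, a thyroid hormone receptor, had 851.7 and 1091 CPM (log2 0.36), and PPARA, a regulator of fatty acid oxidation, had 232.6 and 328.2 CPM (log2 0.50).

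Coregulators, the proteins that receptors recruit to change transcription, hardly differed between the libraries. All 8 measured had at least 20 UMIs in acinar-like nuclei, with log2 ratios from -0.10 for NCOA2 to 0.02 for NCOA3 and a median of -0.02. NRIP1, a corepressor that binds estrogen receptors, was at least 2-fold above every other class in macrophage-like nuclei, at 684.3 and 774.9 CPM. The nearest class was Schwann-like nuclei, at 328.3 and 385.5 CPM, so the limit was passed narrowly. Acinar-like nuclei had 232.9 and 218.3 CPM. The share of all genes that meet this rule in macrophage-like nuclei was not recorded. Among partner receptors by class, PPARG had 155.96 and 271.3 CPM in stellate-like and 312.0 and 315.0 CPM in endothelial-like nuclei. In mural-like nuclei it had 16.1 and 318.5 CPM, from 46 UMIs in all, and in Schwann-like nuclei 0 and 321.2 CPM, from 25. Of the 13 partners with at least 20 UMIs in ductal-like nuclei, 3 were at least 2-fold higher in PIGinH11 and 1 at least 2-fold lower. Over all genes these shares were 17.4% and 3.61%, and 33% of genes under 10 CPM were at least 2-fold higher. NR1H3, a liver X receptor, was among the higher ones (2.45 and 6.02 CPM). The lower one was NR1H4 (11.5 and 4.82 CPM, log2 -1.26, -2.12 to -0.49).

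ALDH1A2, which makes retinoic acid by oxidising retinaldehyde, stood at 307.8 and 400.3 CPM in stellate-like nuclei, at 285.1 and 132.2 CPM in ductal-like nuclei and at 9.73 and 14.5 CPM in acinar-like nuclei. In ductal-like nuclei its log2 ratio of PIGinH11 over WT was -1.11. ALDH1A3, a related enzyme, and NRIP1 were the 2 genes of the lists with a level at least 2-fold above every other class in both libraries and at least 20 UMIs in each. The 2-fold rule was met in stellate-like nuclei by 0.751% of 21049 genes, counted without the limit of 20 UMIs in each library. The share for macrophage-like nuclei was not recorded, so the count of 2 has no full background. ALDH1A3 had 38.0 and 68.9 CPM in stellate-like nuclei, the class in which ESR1 was also highest. Of the 14 retinoid genes, 8 had at least 20 UMIs in acinar-like nuclei, with a median log2 ratio of 0.07 against 0.29 for all genes, and 1 was past 2-fold, against 21.8% of all genes.

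Genes of estrogen metabolism were few. CYP19A1, the aromatase that makes estrogens, had 3.18 and 9.10 CPM in acinar-like nuclei (log2 ratio 1.52, 1.13 to 1.91) and 3.50 and 13.6 CPM in ductal-like nuclei (log2 ratio 1.96, 1.26 to 2.67). HSD17B1, which reduces estrone to estradiol, had 3.04 and 8.01 CPM in acinar-like nuclei (log2 ratio 1.396, 1.00 to 1.80). These means lie in the band under 10 CPM. HSD17B2, which oxidises estradiol back to estrone, had 77.9 and 46.5 CPM and a log2 ratio of -0.74 (-0.87 to -0.62) in acinar-like nuclei. HSD17B4, which also oxidises estradiol, had 53.4 and 71.9 CPM there (log2 ratio 0.43, 0.32 to 0.54) and 39.5 and 73.5 CPM in ductal-like nuclei (log2 ratio 0.90). Of the 4 measured genes known as estrogen receptor targets in other tissues, 0 were past 2-fold in acinar-like nuclei, against 21.8% of all genes. PRLR, the prolactin receptor, had 336.9 and 479.7 CPM (log2 0.51), GREB1 had 2.45 and 4.62 CPM (log2 0.91), PGR, the progesterone receptor, had 0.926 and 1.47 CPM (log2 0.67, -0.19 to 1.52), and CTSD, a lysosomal protease, had 19.4 and 16.5 CPM (log2 -0.24). In ductal-like nuclei 1 of the 3 targets with at least 20 UMIs was past 2-fold, against 17.4% of all genes and 33% of those under 10 CPM. It was GREB1, with 0.816 and 4.22 CPM (log2 2.37, 0.97 to 3.92) from 21 UMIs. In these paragraphs on the pathway the WT value stands first.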

How the data were processed

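Nuclear RNA of 1 WT and 1 PIGinH11 pancreas piece was sequenced on the 10x Genomics platform. The deposited counts are UMIs per gene and nucleus that the authors made with Cell Ranger; version 3.1.0 stands in the submitters' processing notes and 5.0.0 in the matrix headers. The paper lists more reads mapped to the transcriptome than to exonic regions in both libraries, so reads from outside exons were included there. The counting option and the handling of strand are not given in the sources used here. Nuclei were retained with 270 to 3700 genes, under 13000 UMIs and under 10% mitochondrial UMIs, and the highest doublet scores (scanpy 1.11.5) were removed, at 0.8% per 1000 barcodes (1484 WT and 1791 PIGinH11 nuclei). The 2000 most variable genes of each library were pooled, without the receptors, listed partners, mitochondrial genes and ribosomal protein genes. With these genes, 30 principal components, Harmony and Louvain clustering (igraph 0.11.9, resolution 1) gave clusters. A cluster was named where at least 3 markers were at least 2-fold higher and in at least 5% of nuclei. Endocrine, immune and Schwann clusters were clustered again. The naming score and the Schwann split were set after values of the receptors had been seen. UMIs were summed per class and library, and no test was made with 1 library per group. The 2-fold limit needs at least 20 UMIs in both libraries together. Named were the 5 receptors, the 3 most similar genes of each (at least 200 UMIs, and 20 CPM in a class of each library), and list genes with a class at least 2-fold above the others or a 2-fold difference in acinar-like or ductal-like nuclei, with at least 20 UMIs in each library; other list genes are examples chosen after their values were seen. The members and lists were chosen with earlier results of these data known. The ratio and its interval were tested on simulated data. Alternatives changed filters, clustering, scaling, weighting, depth and the random seed of the doublet scores. Shares at 500 UMIs are the mean over nuclei of the hypergeometric chance of drawing at least 1 UMI of the gene. Their intervals apply the Clopper-Pearson formula to the expected number of nuclei as if it were a count, so they are approximate. No sequences were used here.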

Additional observations from a re-analysis of the deposited data

How the results depend on the processing

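Over 13 alternatives 210 values were recomputed for 21 results, 185 stayed within the interval of the reported value and 0 called values changed sign. For the 8 results that the report leads with, 82 values stayed and 12 moved. With nuclei limited to 1300 UMIs, which leaves 25 WT and 116 PIGinH11 stellate-like nuclei, the acinar-like log2 ratio of PIGinH11 over WT was 0.76 for ESR1 and 2.20 for ESR2, and the stellate-like over acinar-like log2 ratio of ESR1 was 2.69 in WT and 2.88 in PIGinH11. Median-of-ratios scaling, which shifts acinar-like ratios by 0.23, gave 2.16 for ESR2 and 0.48 for RXRA. As a mean over nuclei the ESR1 stellate-like ratio was 5.50 in WT and 3.75 in PIGinH11, and thinned to 500 UMIs, in 1 random draw, it was 4.98 and 3.56. The same draw gave ratios of PIGinH11 over WT of 1.66 for ESR1 in acinar-like and 3.03 for ESR2 in ductal-like nuclei. The cause of these moves was not tested. Added after seeing the data, leaving out shared barcodes or scoring doublets with another random seed moved none of these 8 results out of their intervals. Alternatives changed the makeup of small classes: the 6 that named alpha-like nuclei gave 57 to 87 WT and 73 to 120 PIGinH11 nuclei in place of 90 and 156, and islet-like values were not recomputed. An unsplit Schwann cluster gave an RXRG log2 ratio over acinar-like nuclei of 2.54 in PIGinH11. Without Harmony no stellate-like class was named, and no Schwann-like class was named without Harmony or at 1300 UMIs, so those values are missing. ESR1 in stellate-like nuclei had a PIGinH11 over WT log2 ratio of -0.36 as a mean over nuclei, 0.24 in the draw of 500 UMIs and 0.95 at 1300 UMIs, so its direction changed with these settings. The PIGinH11 over WT log2 ratio of RXRB in ductal-like nuclei, 0.29 in the main run, also changed direction. It was -0.47 at 1300 UMIs, outside its interval, and -0.03 in the draw of 500 UMIs. No paired analysis was possible because each group has 1 library.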
